A study of Mus musculus with 12 samples.

Results

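The overload effect of aortic banding on a gene is its log2 signal in banded hearts minus that in sham hearts, and it was measured in these data at 2 points: while the band was in place and 3 days after the band was removed. The change of the overload effect after debanding is the later effect minus the earlier one, (DB3 minus sDB3) minus (AB minus sAB), for each gene. A negative change of a gene that banding had raised means a smaller, lost or reversed difference from sham. The same holds for a positive change of a gene that banding had lowered. Either can come from the banded hearts, from the shams or from both. The comparison used all 12 arrays of the series and 10435 genes, each represented by 1 of the 17817 probe sets that had a single gene symbol and a log2 signal above 4 on at least 3 arrays. The hearts came from male C57BL/6 mice, operated on for the first time at 7 weeks of age, with 3 mice per group and 1 array per mouse. The AB group had aortic banding and was studied after 4 weeks, and the sAB group is its sham. The DB3 group had banding for 4 weeks and then debanding, and was studied 3 days after that operation. The sDB3 group is labelled as a sham procedure with subsequent debanding and was studied at the same time. RNA was taken from the left ventricle after atria and right ventricle had been cut away. DB3 differs from AB in the removal of the band, in a second operation and in 3 days of age, and sDB3 differs from sAB in an operation and those days as well. The change of the overload effect sets the first difference against the second. No group kept its band for those 3 days, so the course without debanding was not measured.

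A band around the aorta makes the left ventricle eject against a higher pressure. Heart muscle cells answer such load by growing and by using genes of the fetal ventricle again, among them the natriuretic peptide genes Nppa and Nppb, the slow myosin Myh7 and skeletal actin Acta1, while fibroblasts lay down collagen and fuel use shifts from fatty acids towards glucose. Natriuretic peptides are hormones that the heart secretes when its wall is stretched. When the load is taken away the heart loses mass, a process called reverse remodelling. The values below are log2 signals, so that a difference of 1 is a 2-fold difference, ± is a standard error (SE) unless it is marked as a standard deviation, and a gene is called where its limma p-value, adjusted over all 10435 genes, is under 0.05.

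Heart muscle was seen in the markers: the mean log2 signal of 10 cardiomyocyte genes lay between 15.21 and 15.37 on every array. They do not show that the atria were fully removed, and the mean of 10 atrial markers ranged over 7.13 to 9.85 on the DB3 arrays. Arrays of 1 group correlated at 0.9955 to 0.9983 over probe sets and arrays of different groups at 0.9933 to 0.9969. The sAB arrays stood apart on BioC, a bacterial control transcript that is added to the hybridisation and carries no mouse RNA. Its mean was 10.35 ± 0.18 (SD, n = 3) on sAB arrays and between 8.39 and 8.41 in each other group. The other added controls did not share this rise. The mean of BioB was 8.76 in sAB and 8.44 to 8.57 in the other groups. For BioD it was 12.37 against 12.56 to 12.60, and for Cre 14.46 against 14.77 to 14.79. A batch behind such differences and the sAB group cannot be told apart, and every value of the change uses the sAB arrays. The size of the difference DB3 minus AB does not use them and is given beside the change for that reason. Its SE and calls do use the spread shared over all 4 groups. The array median of the genes tested was 8.02 in sAB, 8.06 in AB, 7.91 in sDB3 and 8.04 in DB3. No correction was made for these medians in the main values, and centring each array on its median is given where it moves a count. The arrays number 3 per group, which limits the precision of every difference.

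The overload effect changed in 630 genes (6.04% of the genes tested). Of these, 360 had a positive change (3.45%) and 270 a negative one (2.59%). Changes of at least 2-fold were 35 positive and 73 negative. The split depended on the scaling, since centring the arrays left 171 positive and 393 negative calls and quantile normalization 229 and 344. All 270 negative calls remained after centring, while 171 of the 360 positive ones did, and the median change over all genes moved from 0.07 to -0.003. For DB3 against sDB3 the same median moved from 0.09 to -0.03. Without AB replicate 3 the change was called in 152 genes, the lowest count over the 12 arrays left out in turn, and without sDB3 replicate 3 in 567, the highest. Before debanding banding raised 1256 genes (12%) and lowered 802 (7.69%), and after debanding the banded hearts were higher in 560 (5.37%) and lower in 104 (0.997%). Centring turned the latter split to 137 higher and 329 lower, and the former to 1038 and 1171. In a fit of the DB3 and sDB3 arrays alone limma called 0 genes after debanding, where 2137 genes had an unadjusted p under 0.05, so the counts after debanding rest on the spread shared over all 4 groups.

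**Figure D1:**
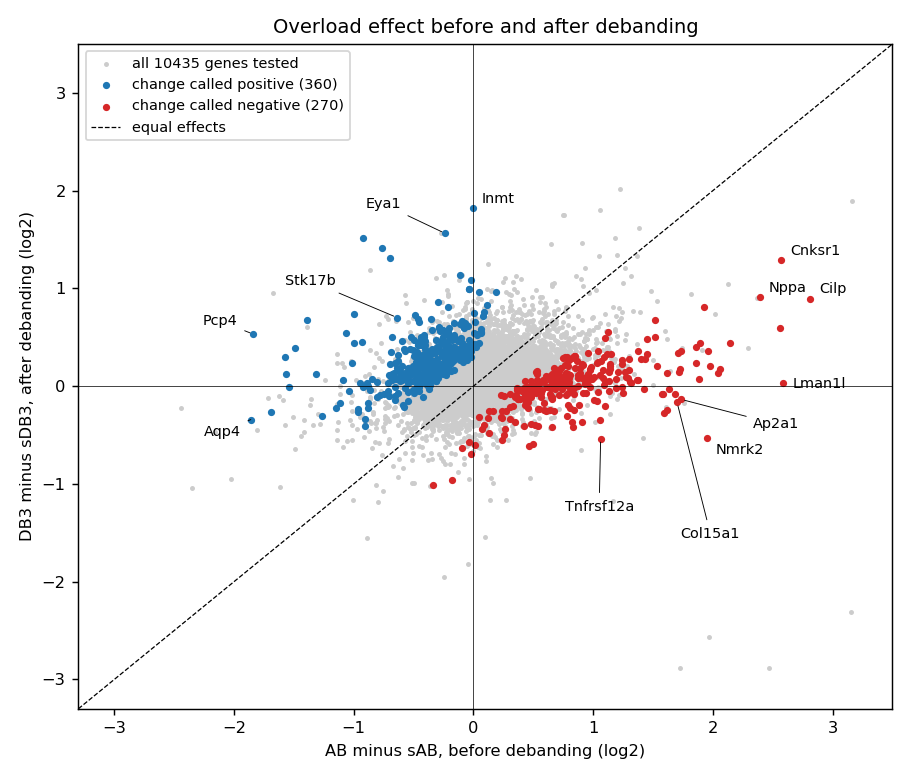
Each point is 1 of 10435 genes, with its overload effect before debanding (AB minus sAB, log2) on the horizontal axis and after debanding (DB3 minus sDB3, log2) on the vertical axis; blue points have a positive and red points a negative change called by limma, and the dashed line marks equal effects. The 270 red points lie mostly to the right near an effect of 0 after debanding, as Lman1l and Col15a1 do, and the 360 blue points to the left or above, as Inmt does.

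The 2 overload effects share no array, and genes called in one of them had a smaller effect in the other, whichever effect they were chosen by. The 1256 genes that banding raised had a median effect of 0.50 before debanding and of 0.18 after it (quartiles 0.05 and 0.31). Of them, 83% kept a positive sign, where 69.2% of all genes were above 0 in DB3 against sDB3, and 157 were called higher again, which is 12.5% of the 1256 and 28% of the 560 genes called higher after debanding. The 802 genes that banding lowered had a median of -0.40 before and -0.01 after. Of those, 53.5% kept a negative sign, where 30.7% of all genes were below 0, and 31 were called lower again (3.87% of the 802 and 29.8% of the 104). After median centring the raised genes had medians of 0.52 before and 0.06 after, and the lowered genes medians of -0.39 before and -0.13 after. Among the 157 genes raised at least 2-fold by banding the median went from 1.24 to 0.28, and 8 of them were still at least 2-fold higher in DB3. The 41 genes lowered at least 2-fold had medians of -1.32 and -0.27. In the reverse choice, the 560 genes called higher after debanding had a median of 0.44 after it and 0.13 before it, and the 104 called lower had -0.47 after and -0.17 before. Choosing genes by a called effect makes that effect the larger one by the choice itself, so these medians do not measure how much of the load response was lost. Counts of genes called in both effects depended on scaling and arrays: those higher in both were 44 after centring and 47 without sDB3 replicate 2, and those lower in both were 111 after centring and 8 without AB replicate 3.

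A called change can come from any of the 4 groups, and the group whose mean lay farthest from the mean of the other groups was found for each gene. Among the 270 negative calls that group was sAB for 148 genes (54.8%), always as the low group, and AB for 99 (36.7%), always as the high group. Among the 360 positive calls it was sAB for 117 (32.5%), AB for 100 (27.8%), sDB3 for 87 (24.2%) and DB3 for 56 (15.6%). Over all genes tested the shares were 31.4%, 24.2%, 26.4% and 18% in the order sAB, AB, sDB3 and DB3. The called genes with all 3 sAB arrays on 1 side of the other 9 arrays were 276, a pattern held by 13% of all genes. For AB the count was 217 (10% of all genes), for sDB3 91 (7.73%) and for DB3 78 (5.4%). The genes below are therefore described by the group that stands apart. A description by any of the 4 groups uses values that also make the call and carries no test of its own.

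**Figure D2:**
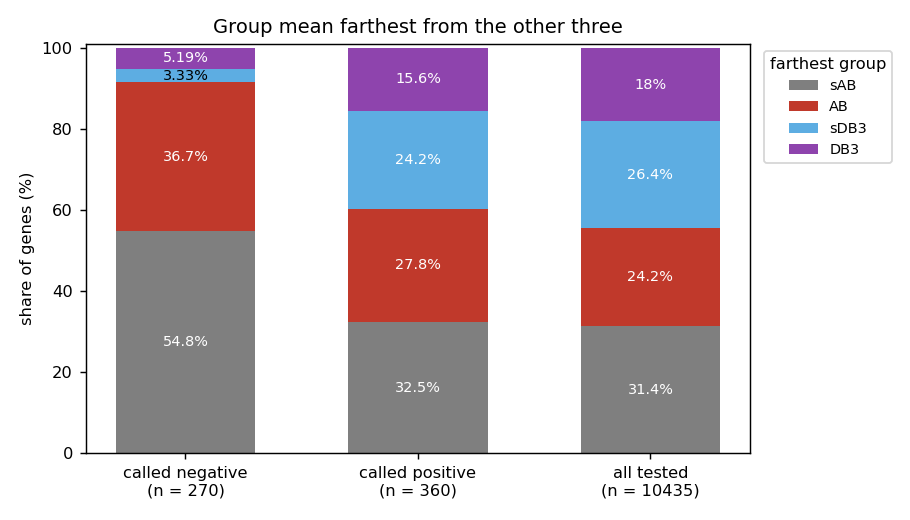
Bars show the share of genes (percent) whose group mean lies farthest from the mean of the other groups, for the 270 genes with a negative change, the 360 with a positive change and all 10435 genes tested, coloured by that group. The sAB share is 54.8% among negative calls and 31.4% among all genes.

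**Figure D3:**
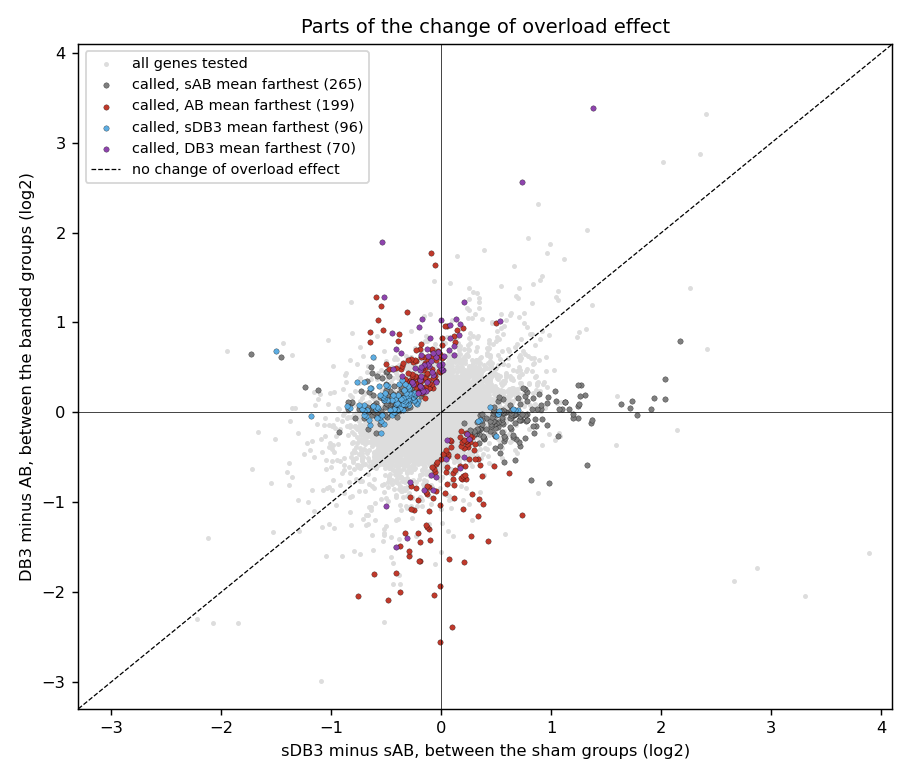
Each point is a gene, with the difference between the sham groups (sDB3 minus sAB, log2) on the horizontal axis and between the banded groups (DB3 minus AB, log2) on the vertical axis; the change of the overload effect is the vertical minus the horizontal value, and coloured points are the 630 called genes by the group that stands farthest. The 265 genes with sAB farthest spread along the horizontal axis near a DB3 minus AB of 0, and the 199 with AB farthest along the vertical axis.

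In the hypertrophy and fetal programme list some genes, among them Nppa and Nppb, had a called negative change, while Myh7, Acta1 and Ankrd1 did not and stayed called above their sham after debanding. Of 18 tested members of this list all 18 had a change below 0, where 39.5% of all genes did, and 8 passed in that direction, against 2.59% of all genes (4 to 9 without 1 array, and 5 or fewer without any array other than AB replicate 1 or sDB3 replicate 3). The list's median overload effect was 1.28 before debanding, 0.02 after it and -1.14 as a change. It is a list chosen with these samples' earlier results known, so its direction is no independent evidence. In DB3 against AB 13 members were lower, where 534 genes (5.12%) were lower and 422 (4.04%) higher among all genes, and 8 of the members without AB replicate 2 or 3. Centring changed neither count. Nppa, Myl4, Myl7 and Dkk3 of this list are also on the list of atrial markers, whose mean varied widely between arrays of 1 group. Myl7 changed by -5.35 (limma adjusted p = 0.1975) and Myl4 by -4.54 (adjusted p = 0.2096), and neither was called. The part of atrial tissue in the list was not tested.

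Nppa and Nppb encode the atrial and the B-type natriuretic peptide and lie on the same chromosome. Their start regions are printed here because banding raised both genes and both had a called change. Each window runs from 250 bases before to 50 bases after the start of the gene in RefSeq (mouse build GRCm38.p6, plus strand, 300 bases, at chr4:148000472-148000771 for Nppa and chr4:147985650-147985949 for Nppb). Capitals mark a match to CATTCC on either strand, the core of the sites that TEAD factors can bind in muscle genes, which occurs in 14.7% of 32851 such windows. The match in Nppb reads GGAATG on the printed strand and begins 105 bases before the start, and the Nppa window held none.
Nppa: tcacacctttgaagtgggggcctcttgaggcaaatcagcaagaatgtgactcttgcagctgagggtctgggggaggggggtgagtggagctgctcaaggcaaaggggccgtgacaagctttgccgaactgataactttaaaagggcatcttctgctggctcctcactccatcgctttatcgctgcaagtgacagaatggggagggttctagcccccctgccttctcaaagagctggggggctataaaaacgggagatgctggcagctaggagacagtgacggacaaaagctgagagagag
Nppb: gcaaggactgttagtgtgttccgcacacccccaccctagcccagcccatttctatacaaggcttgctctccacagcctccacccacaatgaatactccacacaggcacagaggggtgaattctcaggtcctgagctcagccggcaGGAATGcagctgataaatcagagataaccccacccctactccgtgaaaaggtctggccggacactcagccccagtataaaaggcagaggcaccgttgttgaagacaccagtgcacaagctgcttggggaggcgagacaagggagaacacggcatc
The match is a matter of letters, and no binding was measured here.

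The signal of Nppa was 12.64, 12.77 and 12.71 in sAB, 14.90, 15.19 and 15.21 in AB, 12.93, 13.11 and 13.06 in sDB3 and 13.56, 13.99 and 14.29 in DB3. All DB3 values lay between the AB values and those of both sham groups. The change was -1.48 ± 0.22 (adjusted p = 0.0075), and in DB3 the gene still stood 1.88-fold above sDB3 (0.91 ± 0.16, adjusted p = 0.0171). Nppb was 13.30, 13.23 and 13.21 in sAB, 13.90, 14.18 and 14.13 in AB, 12.49, 12.75 and 12.66 in sDB3 and 11.79, 12.29 and 12.74 in DB3. Here the DB3 arrays lay within or below the sDB3 arrays, with -1.80 ± 0.19 (adjusted p = 0.000826) in DB3 minus AB, the change was -1.19 ± 0.27 (adjusted p = 0.0324), and sDB3 itself lay below sAB by 0.61 (adjusted p = 0.0489). The limma call for Nppb was lost without any 1 of 9 of the 12 arrays (adjusted p up to 0.0807), while that for Nppa held without each (up to 0.0279). Nppa is also one of the atrial markers, and the others varied widely between arrays of 1 group: the mean of 10 atrial markers ranged over 7.47 to 8.24 in sAB, 8.27 to 9.43 in AB, 8.51 to 9.75 in sDB3 and 7.13 to 9.85 in DB3. The part of atrial tissue in Nppa was not tested. Myl7, the atrial myosin light chain, was 9.28, 6.96 and 9.32 in sAB, 11.62, 9.41 and 11.94 in AB, 12.41, 12.97 and 10.11 in sDB3 and 9.45, 12.72 and 4.67 in DB3.

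Myh7, the slow myosin heavy chain, was 10.07, 9.58 and 9.48 in sAB, 12.41, 12.98 and 13.23 in AB, 9.87, 9.79 and 10.23 in sDB3 and 11.97, 11.42 and 12.18 in DB3. It stayed high in DB3, without overlap with any sham array, at 1.89 ± 0.25 (adjusted p = 0.00929) above sDB3. Its change of -1.27 ± 0.35 (adjusted p = 0.0611) did not pass, and passed without AB replicate 1. Acta1, skeletal alpha-actin, was 13.64, 14.10 and 13.61 in sAB, 14.98, 15.15 and 15.15 in AB, 13.59, 12.90 and 13.68 in sDB3 and 14.24, 14.53 and 14.78 in DB3, and its change was -0.19 ± 0.30 (adjusted p = 0.751) with a 95% interval of -0.85 to 0.48. Ankrd1, a stretch-responsive repeat protein of the sarcomere, was 14.29, 14.10 and 14.07 in sAB, 14.90, 15.15 and 15.14 in AB, 13.47, 13.81 and 13.92 in sDB3 and 14.58, 14.23 and 14.43 in DB3, with a change of -0.23 ± 0.19 (adjusted p = 0.493) and an interval of -0.64 to 0.18. Acta1, Ankrd1 and Myh7 were each called higher in DB3 against sDB3 in the fit of all 4 groups, and with Nppa they were the 4 members so called, 2 without DB3 replicate 3.

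Xirp1, an actin-binding protein of the intercalated disc, was 10.12, 10.14 and 10.04 in sAB, 10.65, 10.95 and 10.68 in AB, 10.61, 10.71 and 10.41 in sDB3 and 10.22, 10.05 and 10.22 in DB3. It went from above its sham to below it, with effects of 0.66 ± 0.10 (adjusted p = 0.00183) and -0.41 ± 0.10 (adjusted p = 0.0427), and its change was -1.07 ± 0.14 (adjusted p = 0.00481). Synpo2l, an actin-associated protein of the Z-disc, was 11.98, 11.65 and 11.80 in sAB, 12.69, 13.18 and 13.28 in AB, 11.41, 11.63 and 11.51 in sDB3 and 11.67, 11.44 and 11.41 in DB3. Its DB3 arrays overlapped with the sDB3 arrays, and its change was -1.25 ± 0.21 (adjusted p = 0.0124). Enah, an actin filament elongation factor of the same list, had values of 11.22, 11.13 and 11.23 in sAB, 12.09, 12.21 and 12.29 in AB, 11.45, 11.32 and 11.40 in sDB3 and 11.47, 11.45 and 11.54 in DB3 and a change of -0.91 ± 0.10 (adjusted p = 0.002). Xirp1, Synpo2l and Enah kept their calls without each array in turn, with adjusted p-values of at most 0.0178, 0.0398 and 0.00882. Rcan1, a feedback inhibitor of calcineurin and a read-out of its activity, was 10.14, 10.63 and 10.14 in sAB, 11.35, 11.93 and 11.58 in AB, 9.60, 9.10 and 9.95 in sDB3 and 9.47, 9.55 and 9.71 in DB3. The DB3 arrays were at the level of the later shams, the change was -1.29 ± 0.31 (adjusted p = 0.0393), and the call ended without any 1 of 9 arrays (adjusted p up to 0.0901). The homeobox gene Meox1 (change -1.62 ± 0.42, adjusted p = 0.0494) and the myosin-binding protein Mybpc2 (-1.01 ± 0.25, adjusted p = 0.0399) had the same form, with calls lost without 10 and 9 of the arrays.

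**Figure D4:**
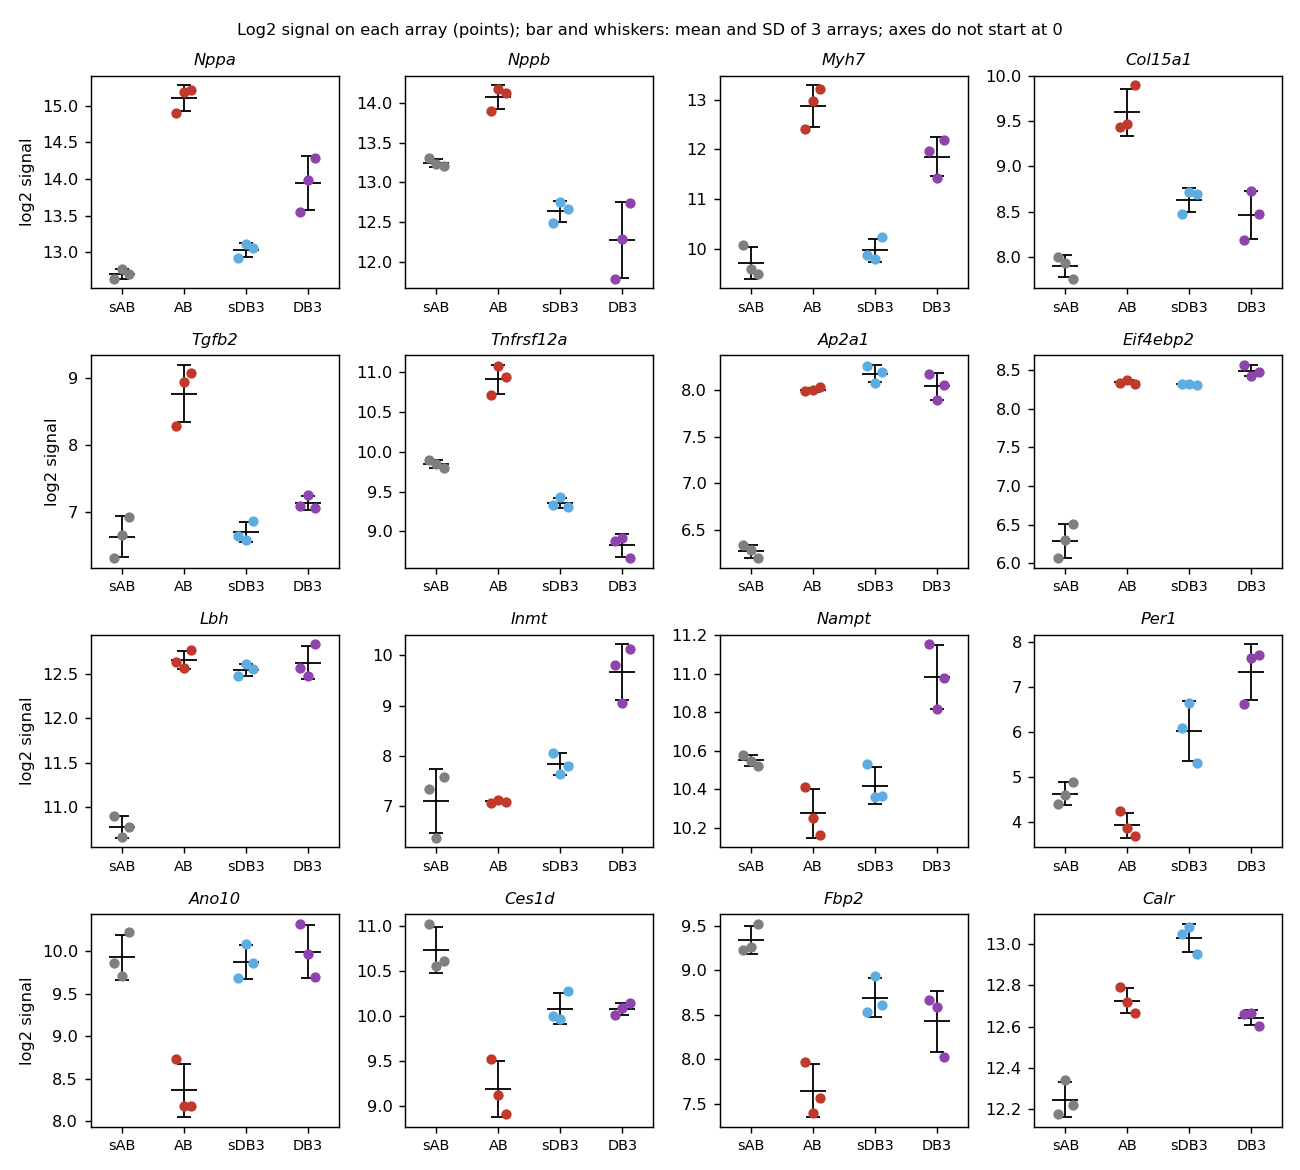
Points give the log2 signal of 16 genes on each of the 12 arrays by group, with bars and whiskers for the mean and SD of 3 arrays; vertical axes differ and do not start at 0. Nppa, Col15a1 and Tgfb2 are highest on the AB arrays, Ap2a1, Eif4ebp2 and Lbh are low on the sAB arrays, Inmt and Nampt are highest on the DB3 arrays, and Ano10 and Ces1d are lowest on the AB arrays.

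The adult sarcomere and calcium handling genes had a median change of -0.07. Of 22 tested 4 had a negative change and 0 a positive one, against 2.59% and 3.45% of all genes. Those were Mybpc3, Actn2, Slc8a1 and Jph2, and they numbered between 0 and 3 without 1 array, at most 2 without any array but DB3 replicate 1 (0 without AB replicate 2 or 3). Jph2, which ties the sarcoplasmic reticulum to the cell membrane, changed by -0.46 ± 0.09 (adjusted p = 0.0226), with its call lost without AB replicate 2 or 3 (adjusted p up to 0.0605). Myh6, the adult myosin heavy chain, was among the brightest signals on all arrays (16.35 to 16.61) with a change of 0.06 ± 0.08 (adjusted p = 0.717), whose sign turned with the mean of its probe sets and with median centring. Of 17 potassium and sodium channels 2 had a positive change, against 3.45% of all genes. They were the potassium channel Kcnv2 (0.75 ± 0.12, adjusted p = 0.0101, near the background in AB) and Abcc9, a subunit of the ATP-sensitive potassium channel (0.46 ± 0.11, adjusted p = 0.0357). Abcc9 lost its call without any 1 of 8 arrays and after centring, and Kcnv2 kept it without each array.

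In the list of collagens other than the fibrillar ones 5 of 15 tested had a negative change and 0 a positive one. Over all genes the shares were 2.59% and 3.45%, and the negative calls of the list numbered 4 to 6 without 1 array. The genes with a negative change were Col15a1, Col4a1, Col4a2, Col8a1 and Col4a3. Col4a3 was above the filter on the AB arrays alone. It entered the fit through the group where it is high, so its call is given no weight. The list's median went from 0.82 before debanding to 0.01 after it. In DB3 minus AB 10 of the 15 were lower, against 5.12% of all genes. Col15a1, a basement membrane collagen, was 8.001, 7.93 and 7.76 in sAB, 9.43, 9.46 and 9.90 in AB, 8.47, 8.72 and 8.69 in sDB3 and 8.19, 8.72 and 8.47 in DB3. The AB arrays lay above all others, DB3 overlapped with sDB3, and sAB lay lowest, with a change of -1.87 ± 0.22 (adjusted p = 0.00294) and -1.14 ± 0.15 (adjusted p = 0.00255) in DB3 minus AB. Col4a1 and Col4a2 encode the main chains of the basement membrane and were the other pair with little spread. Col4a2 was 11.08, 11.12 and 11.09 in sAB, 11.86, 11.90 and 12.01 in AB, 11.07, 11.24 and 11.15 in sDB3 and 11.05, 11.14 and 11.18 in DB3. All 9 arrays without a band in place lay between 11.05 and 11.24, the AB arrays stood above them, and the change was -0.85 ± 0.10 (adjusted p = 0.00249). Col4a1 changed by -0.79 ± 0.14 (adjusted p = 0.0162). Col8a1, a network collagen, was 9.41, 9.64 and 9.30 in sAB, 10.75, 11.51 and 11.68 in AB, 9.22, 9.23 and 9.31 in sDB3 and 9.62, 9.58 and 9.76 in DB3, with a change of -1.46 ± 0.28 (adjusted p = 0.0192) that was lost without AB replicate 2 (adjusted p = 0.0521). These calls of Col15a1, Col4a2 and Col4a1 held without each array, with adjusted p-values up to 0.00928, 0.00945 and 0.0466.

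The fibrillar collagens moved in the same direction with more spread. All 6 had a change below 0, where 39.5% of all genes did, with a median of -0.84. The 1 called negative, against 2.59% of all genes, was Col5a3 (-1.08 ± 0.25, adjusted p = 0.0348, lost without 9 of the arrays). Col1a1, the main chain of scar collagen, was 8.59, 9.01 and 10.04 in sAB, 10.65, 10.63 and 11.66 in AB, 9.58, 10.11 and 9.69 in sDB3 and 8.96, 10.63 and 9.27 in DB3. The sAB values spread from 8.59 to 10.04, DB3 replicate 2 lay at the level of AB, and the change of -1.93 ± 0.67 (adjusted p = 0.112) did not pass, although it passed without DB3 replicate 2. For Col3a1 the change was -0.69 ± 0.58 (adjusted p = 0.506). The mean of 18 fibroblast markers ranged over 9.80 to 10.65 in sAB, 10.38 to 10.81 in AB, 9.94 to 9.97 in sDB3 and 9.82 to 10.52 in DB3. Of those markers 1 had a positive and 0 a negative change, against 3.45% and 2.59% of all genes, with a median of -0.08. In tissue RNA fewer cells of a type and less RNA per cell cannot be told apart, and the part of fibroblast number in these values was not tested.

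Among the matrix glycoproteins 4 of 38 tested had a negative change (0 to 5 without 1 array, and 2 or fewer without any array other than AB replicate 1 or DB3 replicate 2) and 1 a positive one, against 2.59% and 3.45% of all genes, and the median effect was 0.61 before and 0.33 after debanding. Thbs4, a thrombospondin induced by load, was 7.31, 7.51 and 7.17 in sAB, 9.32, 9.50 and 10.85 in AB, 7.20, 7.50 and 7.09 in sDB3 and 7.58, 8.04 and 7.96 in DB3. The DB3 values stayed slightly above those of both sham groups, and the change was -1.96 ± 0.46 (adjusted p = 0.0364). Cilp, a matrix protein of injured and loaded hearts, was 7.71, 8.51 and 8.13 in sAB, 10.37, 10.54 and 11.87 in AB, 8.21, 8.08 and 8.01 in sDB3 and 8.58, 9.18 and 9.22 in DB3, again with DB3 above every sham array and a change of -1.92 ± 0.50 (adjusted p = 0.0482). These calls were lost without any 1 of 9 (Thbs4) and 11 (Cilp) arrays, and without AB replicate 2 none of the 4 negative calls was left. Thbs2, the thrombospondin relative with the opposite course, was 7.03, 6.70 and 6.92 in sAB, 6.77, 6.55 and 7.23 in AB, 7.19, 7.17 and 6.90 in sDB3 and 8.14, 8.004 and 8.10 in DB3. Only its DB3 arrays stood apart, as the highest, with 0.99 ± 0.16 (adjusted p = 0.0146) against sDB3 and a change of 1.03 ± 0.23 (adjusted p = 0.0299), which was lost without any 1 of 7 arrays and, at 0.72, with the mean of its probe sets. Periostin, Postn, was 10.22, 10.74 and 11.06 in sAB, 11.92, 12.75 and 13.08 in AB, 10.24, 10.40 and 10.26 in sDB3 and 10.03, 11.19 and 10.80 in DB3, with a change of -1.53 ± 0.48 (adjusted p = 0.0835) that passed without AB replicate 1. Adamtsl2, a secreted protein that binds latent TGF-beta-binding proteins, was the 1 called gene of 18 matrix proteases and inhibitors, against 6.04% of all genes. It was 7.42, 7.64 and 6.77 in sAB, 8.53, 8.88 and 9.26 in AB, 7.63, 7.63 and 7.85 in sDB3 and 7.19, 7.55 and 7.63 in DB3, all AB arrays lay above the rest, and the change of -1.85 ± 0.33 (adjusted p = 0.0155) held without each array.

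Of 28 tested TGF-beta and BMP signalling genes 3 had a negative change and 1 a positive one, against 2.59% and 3.45% of all genes. The negative ones were the ligands Tgfb1 and Tgfb2 and the inhibitor Fstl3. Without 1 array the negative calls numbered 1 to 4 and the positive ones 0 to 1. Only 1 negative call was left without AB replicate 2, AB replicate 3 or DB3 replicate 3. Tgfb2, a ligand that drives matrix production, was 6.31, 6.66 and 6.92 in sAB, 8.28, 8.95 and 9.08 in AB, 6.64, 6.59 and 6.87 in sDB3 and 7.10, 7.26 and 7.06 in DB3. The AB arrays lay above all others, the change was -1.70 ± 0.29 (adjusted p = 0.0124), and the call held without each array. Tgfb1, the main ligand of fibroblast activation, was 7.47, 7.43 and 7.62 in sAB, 8.29, 8.45 and 8.72 in AB, 8.06, 8.06 and 8.30 in sDB3 and 8.30, 8.44 and 8.18 in DB3. It differed from Tgfb2 in that DB3 did not come down from AB by a called amount (-0.18 ± 0.12, adjusted p = 0.384), and the sAB arrays lay lowest, so that the change of -0.81 ± 0.17 (adjusted p = 0.0251) came with a sham difference of 0.63 ± 0.12 (adjusted p = 0.00738). Its call was lost without sAB replicate 1, AB replicate 2, AB replicate 3 or DB3 replicate 3. Fstl3, which binds and blocks activins, changed by -0.87 ± 0.19 (adjusted p = 0.0278) and lost its call without any 1 of 7 arrays. Id1, a helix-loop-helix inhibitor that BMP receptors induce, was 9.91, 10.20 and 10.41 in sAB, 9.94, 9.85 and 9.50 in AB, 10.11, 10.10 and 9.98 in sDB3 and 10.29, 10.67 and 10.80 in DB3. It was lowest in AB and highest in DB3, its change was 0.93 ± 0.23 (adjusted p = 0.043), and the call was lost without any 1 of 9 arrays and after centring. Ace, which makes angiotensin II, was the 1 called gene of 12 in the angiotensin and adrenergic list, against 6.04% of all genes. It was 6.67, 6.52 and 7.12 in sAB, 8.15, 8.22 and 8.54 in AB, 7.93, 7.83 and 7.74 in sDB3 and 7.94, 7.96 and 8.23 in DB3. DB3 stayed near the AB level (-0.26 ± 0.16, adjusted p = 0.335), sDB3 lay above sAB by 1.06, and the change was -1.32 ± 0.22 (adjusted p = 0.0124), with sAB as the group apart. Another probe set of Ace changed by -0.56 and was not called by limma (adjusted p = 0.1072).

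Other genes had AB apart as well. Tnfrsf12a, the receptor of the cytokine TWEAK, was 9.90, 9.85 and 9.80 in sAB, 10.72, 11.08 and 10.94 in AB, 9.34, 9.43 and 9.31 in sDB3 and 8.88, 8.92 and 8.66 in DB3. No group overlapped with another, and the order was AB, sAB, sDB3 and then DB3, so the receptor went from 1.06 ± 0.10 (adjusted p = 9.97e-05) above its sham to -0.54 ± 0.10 (adjusted p = 0.0212) relative to it, a change of -1.60 ± 0.14 (adjusted p = 0.000405). DB3 minus AB was -2.09 ± 0.10 (adjusted p = 4.56e-06). Lman1l was 2.26, 2.26 and 2.25 in sAB, 4.23, 5.08 and 5.22 in AB, 2.25, 2.26 and 2.23 in sDB3 and 2.29, 2.25 and 2.30 in DB3, at the background in every group but AB, with a change of -2.55 that the background compresses. Nmrk2, a nicotinamide riboside kinase of muscle that feeds NAD synthesis, was 7.32, 7.72 and 7.49 in sAB, 8.51, 10.11 and 9.76 in AB, 7.94, 7.003 and 7.86 in sDB3 and 7.05, 7.13 and 7.03 in DB3. All DB3 arrays lay below every AB and sAB array, and the change was -2.48 ± 0.51 (adjusted p = 0.0251), with calls lost without sAB replicate 1, AB replicate 2, AB replicate 3 or sDB3 replicate 1 (adjusted p up to 0.0657). Cnksr1, a scaffold of Ras signalling, was 5.88, 6.24 and 5.79 in sAB, 8.42, 8.80 and 8.40 in AB, 6.83, 6.51 and 6.40 in sDB3 and 7.99, 7.51 and 8.11 in DB3. It kept more than the others, at 1.29 ± 0.19 (adjusted p = 0.0116) above sDB3, with a change of -1.28 ± 0.27 (adjusted p = 0.0254) that was lost without any 1 of 5 arrays. The uridine-cytidine kinase Uck2 changed by -1.65 ± 0.26 (adjusted p = 0.00933). Egr2, an immediate early transcription factor near the background outside AB, had a change of -1.45. It was the 1 called gene of 25 in its list, against 6.04% of all genes. Lman1l and Egr2 were above a log2 signal of 4 on the AB arrays alone and entered the fit through the group where they are high, so their calls are given no weight. Of all genes 10 entered through 1 group alone, and 7 of those were among the 630. On the AB arrays the difference of the 3' and 5' control probe sets of Actb, a sign of RNA quality, was 1.07 ± 0.056 (SD, n = 3), against 1.22 in sAB, 1.22 in sDB3 and 1.23 in DB3. The same difference for Gapdh was 0.032 in AB, -0.0078 in sAB, -0.0056 in sDB3 and 0.018 in DB3, and its AB arrays overlapped with sAB arrays. The part of RNA quality in genes with AB apart was not tested.

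Of 23 heat shock and cytosolic chaperone genes 4 had a negative change, against 2.59% of all genes. These were Hspb1, Hspb3, Hspb6 and Hspb7, all small heat shock proteins. They numbered 2 or 3 without 1 array. The other small heat shock proteins tested were not called: Hspb2 changed by -0.03 ± 0.16 (adjusted p = 0.935), Hspb8 by -0.04 ± 0.13 (adjusted p = 0.894) and Cryab by -0.14 ± 0.10 (adjusted p = 0.422). The list does not set small heat shock proteins apart, and this division was made after the values were seen. Hspb6, a chaperone that binds actin regulators, was 14.20, 14.24 and 14.20 in sAB, 14.67, 14.63 and 14.66 in AB, 14.41, 14.45 and 14.40 in sDB3 and 14.15, 14.31 and 14.31 in DB3, and its change was -0.60 ± 0.09 (adjusted p = 0.006). Hspb7, a cardiac chaperone of filamin, was 14.14, 14.08 and 14.16 in sAB, 14.60, 14.65 and 14.68 in AB, 14.51, 14.59 and 14.49 in sDB3 and 14.48, 14.45 and 14.46 in DB3. DB3 lay just below sDB3, sAB was lowest, and the change was -0.59 ± 0.08 (adjusted p = 0.00539). Both kept their calls without each array. Hspb6 had a DB3 minus AB of -0.40 ± 0.06 (adjusted p = 0.00448) and Hspb7 one of -0.18 ± 0.06 (adjusted p = 0.0729).

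Among the positive calls with AB farthest, AB was the low group in all 100. A return of DB3 to the level of sAB was not seen in each of them, as Ces1d below shows. Ano10, a membrane protein of the anoctamin family, was 9.86, 9.71 and 10.22 in sAB, 8.73, 8.18 and 8.18 in AB, 9.68, 10.08 and 9.86 in sDB3 and 10.32, 9.97 and 9.70 in DB3. The AB arrays lay below all others, DB3 lay among the shams, and the change was 1.69 ± 0.29 (adjusted p = 0.0124). Tbc1d10c, a regulator of Rab and Ras proteins, was 7.58, 7.49 and 7.91 in sAB, 6.49, 6.12 and 5.65 in AB, 7.79, 7.27 and 7.62 in sDB3 and 8.10, 7.87 and 7.62 in DB3, with a change of 1.87 ± 0.30 (adjusted p = 0.0114). Ces1d, a carboxylesterase with triglyceride hydrolase activity, was 11.02, 10.56 and 10.61 in sAB, 9.52, 9.12 and 8.92 in AB, 10.004, 9.97 and 10.28 in sDB3 and 10.01, 10.09 and 10.14 in DB3. DB3 and sDB3 overlapped, sAB lay above both, and the change was 1.54 ± 0.23 (adjusted p = 0.0075). Aldh1l2, the mitochondrial folate dehydrogenase, was 6.02, 6.17 and 5.66 in sAB, 4.79, 4.54 and 4.57 in AB, 5.09, 5.61 and 5.55 in sDB3 and 5.80, 5.52 and 5.32 in DB3, with a change of 1.45 ± 0.25 (adjusted p = 0.0135). The calls of these genes held without each array. The scavenger receptor Scara5 (1.88 ± 0.40, adjusted p = 0.0268), the polymerase gene Poln (1.73 ± 0.42, adjusted p = 0.0408) and Vit, a matrix protein (1.61 ± 0.42, adjusted p = 0.0479), lost theirs without 5, 8 and 10 of the arrays, and Vit also after centring.

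In a list of 34 genes of fatty acid uptake and oxidation banding had lowered 16, against 7.69% of all genes. The 16 became 8 to 10 without sAB replicate 1, sAB replicate 3, AB replicate 2 or AB replicate 3. After debanding 0 were called lower (3 after centring), against 0.997% of all genes. The change was above 0 in 24 of the 34, against 60.5% of all genes, and 1 was called positive, against 3.45% of all genes. The median effect went from -0.25 before debanding to -0.04 after it, against medians of 0.01 and 0.09 over all genes. After centring the list's medians were -0.30 before and -0.17 after, against -0.04 and -0.03 over all genes. The called gene was Plin5, a lipid droplet coat protein of oxidative tissue (0.56 ± 0.12, adjusted p = 0.026, lost without 6 of the arrays and, at 0.33, with the mean of its probe sets), in which sAB lay highest and DB3 minus AB was 0.12 ± 0.08 (adjusted p = 0.388). Without AB replicate 1 the count was 6, without sDB3 replicate 3 or DB3 replicate 3 it was 2, and without any 1 of sAB replicates 2 and 3, AB replicates 2 and 3, sDB3 replicate 2 and DB3 replicate 2 it was 0. Acot1, an acyl-CoA thioesterase and a target of PPAR alpha, was 7.80, 7.99 and 8.27 in sAB, 6.63, 5.79 and 6.22 in AB, 7.85, 8.03 and 8.42 in sDB3 and 7.68, 8.09 and 7.18 in DB3. Its AB arrays lay below every other array, and its change of 1.36 ± 0.37 (adjusted p = 0.057) did not pass. The thiolase Acaa2 had a change of 0.56 ± 0.16 (adjusted p = 0.0597). Of 55 respiratory chain and citrate cycle genes 0 had a called change by limma, against 6.04% of all genes. Among them 8 had an unadjusted p under 0.05 and 1 was called by plain analysis of variance. The median change of these genes was 0.01.

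Of 21 glycolysis genes tested 3 had a positive and 4 a negative change, against 3.45% and 2.59% of all genes; without AB replicate 2 or 3 no positive call was left, and the negative calls numbered 1 to 5. Fbp2, muscle fructose-bisphosphatase, which runs against glycolysis, was 9.23, 9.27 and 9.52 in sAB, 7.97, 7.40 and 7.57 in AB, 8.53, 8.94 and 8.61 in sDB3 and 8.66, 8.59 and 8.03 in DB3. It was lowest in AB, and its change was 1.43 ± 0.27 (adjusted p = 0.0207), lost without AB replicate 2 or 3. Pdk1, the kinase that closes pyruvate dehydrogenase, was 10.91, 10.90 and 10.91 in sAB, 10.79, 10.31 and 10.41 in AB, 10.79, 10.60 and 10.75 in sDB3 and 11.26, 11.04 and 11.10 in DB3, with the lowest mean in AB and the highest in DB3 and a change of 0.82 ± 0.16 (adjusted p = 0.0227) that was lost without the same arrays. With the mean of its probe sets the change of Pdk1 was 0.43 and not called. Pfkfb3, which makes the activator of phosphofructokinase, was 5.88, 5.49 and 5.88 in sAB, 5.74, 5.77 and 5.88 in AB, 5.88, 5.88 and 5.88 in sDB3 and 7.18, 6.45 and 6.90 in DB3. Many of its values sit at a common low level of 5.88, only DB3 stood above it, and its change of 0.91 ± 0.23 (adjusted p = 0.0435) was lost without 10 of the arrays. On the negative side Pfkl, the liver-type phosphofructokinase, was 10.25, 10.25 and 10.09 in sAB, 10.97, 10.98 and 10.97 in AB, 11.16, 10.94 and 10.83 in sDB3 and 11.05, 10.81 and 10.80 in DB3. Here sAB was the low group, DB3 minus AB was -0.09 ± 0.10 (adjusted p = 0.644), and the change was -0.86 ± 0.14 (adjusted p = 0.0108). The platelet-type Pfkp changed by -0.76 ± 0.18 (adjusted p = 0.0377) and was lower in DB3 than in AB (-0.98 ± 0.13, adjusted p = 0.00209), and hexokinase Hk1 changed by -0.65 ± 0.14 (adjusted p = 0.0303), with calls lost without 10 and 7 of the arrays.

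A large share of the called genes had the sAB arrays apart and little or no difference between DB3 and AB. Ap2a1, a subunit of the clathrin adaptor, was 6.33, 6.28 and 6.19 in sAB, 7.99, 7.997 and 8.03 in AB, 8.26, 8.07 and 8.19 in sDB3 and 8.18, 7.89 and 8.05 in DB3. The other 9 arrays lay between 7.89 and 8.26 and sAB lay below them, so that the change of -1.87 ± 0.12 (adjusted p = 3.95e-05) came with 0.03 ± 0.08 (adjusted p = 0.842) in DB3 minus AB and 1.90 ± 0.08 (adjusted p = 8.9e-07) in sDB3 minus sAB. Eif4ebp2, a repressor of cap-dependent translation, was 6.06, 6.30 and 6.50 in sAB, 8.34, 8.37 and 8.33 in AB, 8.33, 8.32 and 8.30 in sDB3 and 8.57, 8.43 and 8.48 in DB3, with a change of -1.88 ± 0.13 (adjusted p = 0.000115). Lbh, a transcription cofactor of heart development, was 10.90, 10.66 and 10.77 in sAB, 12.63, 12.57 and 12.77 in AB, 12.48, 12.61 and 12.56 in sDB3 and 12.57, 12.47 and 12.83 in DB3, with a change of -1.81 ± 0.14 (adjusted p = 0.000211). Raver1, an RNA-binding protein, was 3.60, 3.60 and 3.53 in sAB, 5.16, 5.23 and 5.24 in AB, 5.23, 5.40 and 5.24 in sDB3 and 5.34, 5.23 and 5.23 in DB3, with a change of -1.66 ± 0.09 (adjusted p = 3.43e-05). For Lrp5, a Wnt co-receptor, the change was -1.77 ± 0.26 (adjusted p = 0.00646) and DB3 minus AB 0.16 ± 0.18 (adjusted p = 0.642). The smallest adjusted p-values of the comparison were those of Raver1, Ap2a1, Eif4ebp2, Lbh and Itga5, all with sAB farthest, and all kept their calls without each array. Other probe sets of Lbh changed by -1.26 and -0.31, and of Eif4ebp2 by -1.27 and -0.65. In each pair limma called the first value and not the second. The other probe set of Itga5 changed by -1.33 and was called. The sAB arrays also stood apart on BioC, and the overload effect before debanding uses the same arrays.

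Itga5 and Mical2 had sAB apart and also a called fall from AB. Itga5, the fibronectin receptor subunit, was 6.95, 6.80 and 7.12 in sAB, 8.93, 9.10 and 8.96 in AB, 8.21, 8.48 and 8.16 in sDB3 and 8.53, 8.40 and 8.32 in DB3. Its DB3 minus AB was -0.58 ± 0.11 (adjusted p = 0.00931) and its change -1.91 ± 0.15 (adjusted p = 0.000211). Mical2, an actin-oxidising enzyme, had -0.79 ± 0.16 (adjusted p = 0.0148) in DB3 minus AB and a change of -1.77 ± 0.23 (adjusted p = 0.00428). Calr, the calcium-binding chaperone of the endoplasmic reticulum, was 12.18, 12.34 and 12.22 in sAB, 12.79, 12.72 and 12.67 in AB, 13.05, 13.08 and 12.95 in sDB3 and 12.66, 12.66 and 12.60 in DB3. It was highest in sDB3 and lowest in sAB, its effect went from 0.48 ± 0.07 (adjusted p = 0.00103) to -0.39 ± 0.07 (adjusted p = 0.0172), and its change was -0.86 ± 0.09 (adjusted p = 0.002), with -0.08 ± 0.07 (adjusted p = 0.485) in DB3 minus AB. The positive changes with sAB as the high group included Pcp4, a calmodulin regulator, at 4.19, 4.92 and 4.05 in sAB, 2.86, 2.23 and 2.55 in AB, 2.23, 2.96 and 2.79 in sDB3 and 3.67, 2.72 and 3.18 in DB3, and the water channel Aqp4, at 4.09, 4.52 and 4.22 in sAB, 2.72, 2.23 and 2.30 in AB, 3.11, 3.26 and 2.75 in sDB3 and 2.72, 2.74 and 2.63 in DB3. Both were above a log2 signal of 4 on the sAB arrays alone, so that they too entered the fit through the group where they are high, and their changes of 2.37 and 1.52 are given as a description. In all, 573 genes (5.49%) were higher and 1288 (12.3%) lower in sDB3 than in sAB, and centring gave 893 higher and 589 lower.

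Some genes stood apart in DB3, 3 days after debanding, and those named here had no called effect of banding before it. Inmt, a methyltransferase of indoles, was 7.35, 6.38 and 7.59 in sAB, 7.08, 7.13 and 7.09 in AB, 8.07, 7.64 and 7.81 in sDB3 and 9.82, 9.04 and 10.12 in DB3. Every DB3 array lay above all other arrays, the effect was -0.01 ± 0.31 (adjusted p = 0.99) before and 1.82 ± 0.31 (adjusted p = 0.0171) after debanding, and the change was 1.83 ± 0.44 (adjusted p = 0.0393). Its call was lost without any 1 of 10 arrays, and sAB had the widest spread. Nampt, the rate-limiting enzyme of NAD salvage, was 10.58, 10.55 and 10.52 in sAB, 10.41, 10.25 and 10.16 in AB, 10.53, 10.36 and 10.37 in sDB3 and 11.15, 10.82 and 10.98 in DB3. DB3 lay above all other arrays, AB had the lowest mean, and its change of 0.84 ± 0.13 (adjusted p = 0.0108) held without each array. Nmrk2 and Nampt, which feed NAD synthesis by separate routes, thus had changes of opposite sign. Art5, an ADP-ribosyltransferase, was 5.77, 5.68 and 5.96 in sAB, 5.56, 5.39 and 5.58 in AB, 5.59, 5.50 and 5.70 in sDB3 and 6.58, 6.43 and 6.36 in DB3, with a change of 1.15 ± 0.14 (adjusted p = 0.00297). Crebrf, a regulator of CREB3 factors and of the glucocorticoid receptor, was 8.85, 8.61 and 8.72 in sAB, 8.93, 8.55 and 8.70 in AB, 8.67, 8.62 and 8.65 in sDB3 and 9.46, 9.37 and 9.34 in DB3, with a change of 0.74 ± 0.14 (adjusted p = 0.0174) that was lost without AB replicate 3 (adjusted p = 0.0511). Eya1, a transcription cofactor near the background on most arrays, changed by 1.80 ± 0.44 (adjusted p = 0.0393) and lost its call without 9 of the arrays. Popdc2, a cyclic AMP-binding membrane protein of heart muscle, was lowest in DB3 at 11.78, 11.82 and 11.78 in sAB, 11.80, 11.90 and 11.94 in AB, 12.04, 12.07 and 11.97 in sDB3 and 11.70, 11.65 and 11.55 in DB3, with a change of -0.48 ± 0.09 (adjusted p = 0.0205), lost without AB replicate 2 or 3. Tfrc, the transferrin receptor that takes up iron, was 11.87, 12.51 and 12.39 in sAB, 12.36, 12.23 and 12.46 in AB, 12.68, 11.23 and 12.70 in sDB3 and 10.93, 10.60 and 10.45 in DB3. DB3 lay below every other array, and the change of -1.64 ± 0.48 (adjusted p = 0.0701) did not pass, but passed without sDB3 replicate 2.

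The clock gene Per1 had the largest rise from AB to DB3 of the genes tested. Per1, a repressor of the circadian clock that glucocorticoids also induce, was 4.40, 4.61 and 4.90 in sAB, 4.24, 3.88 and 3.69 in AB, 6.09, 6.64 and 5.32 in sDB3 and 6.62, 7.65 and 7.72 in DB3. DB3 minus AB was 3.39 ± 0.35 (adjusted p = 0.000767), sDB3 minus sAB was 1.38 ± 0.35 (adjusted p = 0.0243), and the change of 2.01 ± 0.50 (adjusted p = 0.0421) was lost without any 1 of 10 arrays and under both other scalings. Nr1d1, a clock repressor, was 6.88, 6.82 and 7.19 in sAB, 8.33, 8.54 and 9.22 in AB, 9.35, 9.10 and 8.94 in sDB3 and 9.43, 9.25 and 9.80 in DB3, with sAB as the low group and a change of -1.38 ± 0.31 (adjusted p = 0.0329) whose call was lost without any 1 of 8 arrays. Of 20 clock and clock output genes 11 were higher and 3 lower in DB3 than in AB, against 4.04% and 5.12% of all genes. The 11 became 7 without AB replicate 2 and 6 without AB replicate 3. In sDB3 against sAB 6 were higher and 4 lower, against 5.49% and 12.3% of all genes. The 6 became 1 without sAB replicate 2, sDB3 replicate 1 or sDB3 replicate 2, 11 without sDB3 replicate 3 and 10 after centring, and the 4 became 2 without sAB replicate 2 or sDB3 replicate 2. As a change of the overload effect 1 gene of the list, Per1, was positive and 1, Nr1d1, negative, against 3.45% and 2.59% of all genes. The labels give no time of day, and its part was not tested.

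In 87 positive calls and 9 negative ones sDB3 was farthest from the rest. Aox1, an aldehyde oxidase, was 8.91, 9.11 and 9.11 in sAB, 8.90, 9.06 and 8.84 in AB, 8.38, 8.40 and 8.48 in sDB3 and 9.76, 9.35 and 9.54 in DB3. DB3 lay highest and sDB3 lowest, while AB and sAB overlapped, and the change of 1.24 ± 0.15 (adjusted p = 0.00341) held without each array. Bcl11b, a zinc finger transcription factor, was 5.71, 5.84 and 5.13 in sAB, 5.25, 4.46 and 4.69 in AB, 4.30, 3.42 and 4.46 in sDB3 and 5.65, 6.18 and 4.61 in DB3, with a change of 2.18 ± 0.56 (adjusted p = 0.0482) that was lost without 11 of the arrays. The sDB3 arrays had the lowest array medians, and 171 of the 360 positive calls remained after centring.

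The lists of other cell types differed in how many markers changed, against 6.04% of all genes. The endothelial list had 0 calls by limma among 19 (4 at an unadjusted p under 0.05, 0 by plain analysis of variance), with a mean signal of 9.72 to 9.75 in sAB, 9.91 to 10.02 in AB, 9.49 to 9.59 in sDB3 and 9.60 to 9.72 in DB3, and a median change of -0.13. Smooth muscle and pericyte markers had 3 negative and 1 positive call among 14. The negative calls were 0 without AB replicate 2 or 3 and 1 without sAB replicate 1 or sDB3 replicate 1, and the positive one was lost without any 1 of 8 arrays. Of those Mcam, an adhesion molecule of pericytes, changed by -0.63 ± 0.12 (adjusted p = 0.0183) and Cspg4, the NG2 proteoglycan, by -0.81 ± 0.19 (adjusted p = 0.0355), with calls lost without 2 and 8 of the arrays. Monocyte and macrophage markers had 20 of 21 changes above 0, where 60.5% of all genes did, with a median of 0.47, but 1 call, which was negative: the fractalkine receptor Cx3cr1, at 6.30, 6.22 and 6.54 in sAB, 7.20, 6.94 and 7.66 in AB, 6.14, 6.28 and 6.30 in sDB3 and 6.30, 6.11 and 6.10 in DB3, with a change of -0.98 ± 0.22 (adjusted p = 0.033) that was lost without any 1 of 9 arrays. The mean of the macrophage list ranged over 7.95 to 8.99 in sAB, 8.03 to 8.16 in AB, 7.89 to 8.09 in sDB3 and 8.05 to 8.30 in DB3, widest in sAB. Without sAB replicate 3 the list's median change was 0.24, with 13 of 21 above 0. The acute phase and wound response list had the largest positive median change of the pathway lists, 0.73, with 13 of 14 genes above 0 and 0 called by limma (1 at an unadjusted p under 0.05, 0 by plain analysis of variance), and its median was -0.70 in AB minus sAB and 0.12 in DB3 minus sDB3. This rested on 1 sham array: without sAB replicate 3 the median change was 0.036, with 9 of 14 above 0, and the mean of the list ranged over 5.88 to 8.42 in sAB, 6.01 to 6.55 in AB, 5.90 to 6.40 in sDB3 and 6.13 to 6.40 in DB3. The part of immune cells in the sAB hearts was not tested.

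**Figure D5:**
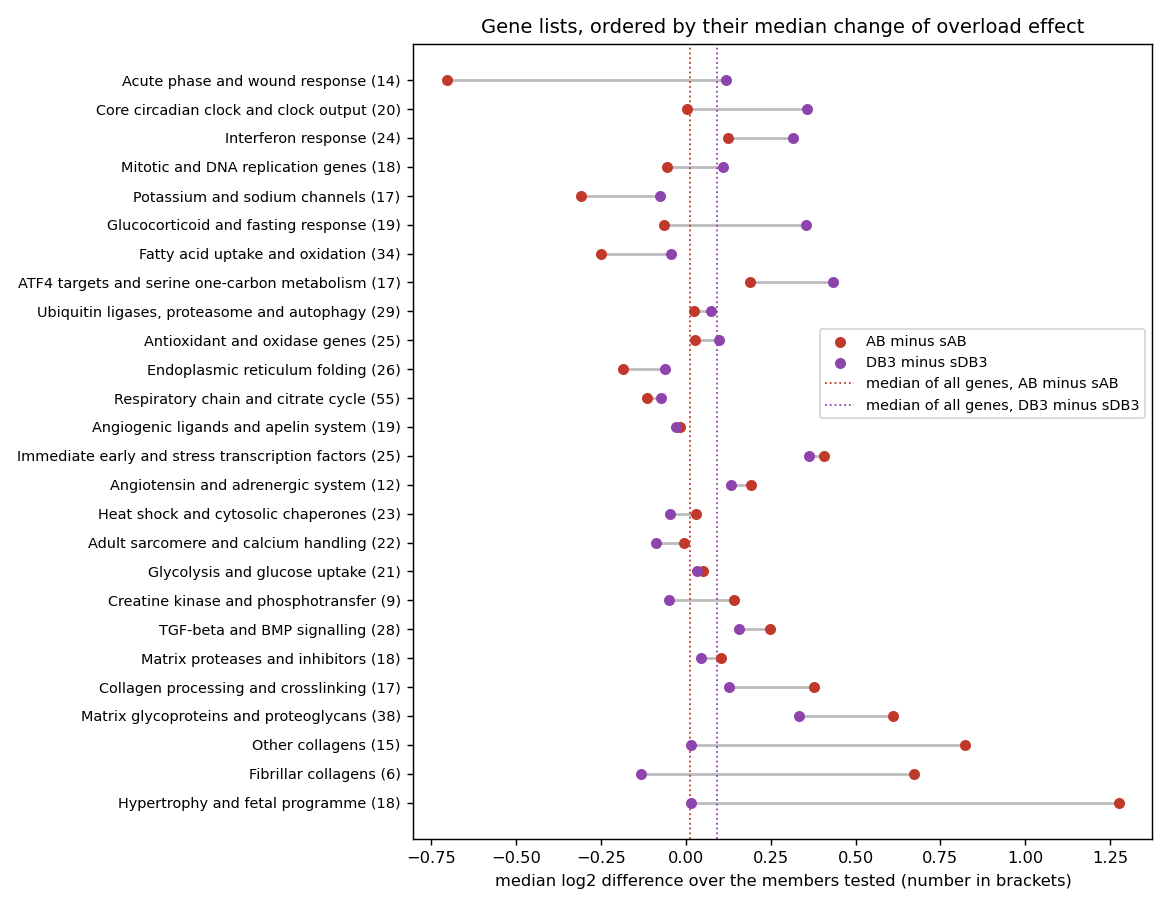
For each of 26 gene lists the red point is the median log2 difference of its tested members (number in brackets) in AB minus sAB and the purple point that in DB3 minus sDB3, with the lists ordered by their median change and dotted lines at the medians of all genes. The hypertrophy list goes from 1.28 to 0.02 and the other collagens from 0.82 to 0.01, while the acute phase list, whose change rests on sAB replicate 3, goes from -0.70 to 0.12.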

How the data were processed

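Biotin-labelled cRNA was prepared from 3 µg of total RNA of each heart for 1 Affymetrix array, as the labels' protocols state. The deposited values are log2 signals that the authors made with GCRMA, per the submitters' processing notes. For GCRMA, version and settings are not given in the sources read. Of 45101 probe sets 34945 had 1 gene symbol in the platform annotation, 932 had several, 9211 had none and 13 were controls with a symbol, and only the first kind was used. Where a gene had more than 1 probe set left, as 4608 genes did, the brightest on average over all 12 arrays stood for it.

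Group means were compared with limma's lmFit and eBayes (limma 3.58.1, R 4.3.3) in 1 model of the 4 groups, with 8 residual and 2.68 prior degrees of freedom, two-sided p-values and Benjamini-Hochberg adjustment over 10435 genes. The fit was tested on simulated data. The series' description states an analysis of variance for each gene; limma's moderated spread was used here, with the plain analysis of variance as an alternative. Samples were grouped by the stress label. Replicate numbers follow accession order, and p-values measure the spread between these mice. Named genes are the 15 largest called changes in each direction, 20 genes chosen for this tissue, up to 4 members of each list, the 5 largest effects in each direction before and after debanding, and genes called in opposite directions. Rcan1, Mybpc2, Synpo2l, Nampt, Thbs2, Uck2, Enah, Col4a1, Col4a2, Hk1, Pfkp, Art5, Aox1, Plin5, Abcc9, Crebrf and Popdc2 were picked after their values were seen. The members and the gene lists were chosen with earlier results of these data known. Promoter windows came from RefSeq on GRCm38.p6. Scanner files and scan dates were not used here.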

Additional observations from a re-analysis of the deposited data

Results flagged for a closer look

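The overload effect differed before and after debanding in 630 genes, by the test of the difference itself in limma. Of these, 18 were called in opposite directions in AB against sAB and in DB3 against sDB3, and the 10 with the largest change are given here. The group means of the 2 effects share no arrays, but their calls share an estimate of the spread from all 12 arrays. In a fit of the DB3 and sDB3 arrays alone limma called 0 genes. Below sham before debanding and above it afterwards were Stk17b, a death-associated kinase (change 1.34 log2 units), Rabep2, a Rab effector (1.06), the phosphodiesterase Pde7b (0.93), Cutc (0.92), Nhsl1 (0.91), Sde2 (0.89) and Dcaf4 (0.89). Above sham before and below it afterwards were Tnfrsf12a (-1.60), Xirp1 (-1.07) and Calr (-0.86). The number of such genes was 6 after quantile normalization and 34 with trended and robust moderation.

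The bacterial control BioC, which no comparison of genes uses, was 1.96 log2 units higher on the 3 sAB arrays than the mean of the other 9 arrays. The controls BioD and Cre had lower means in sAB than in each other group. The change of the overload effect uses the sAB arrays. The size of DB3 minus AB does not, but its SE and calls use the spread shared over all 4 groups.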

How the results depend on the processing

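The change was called in 630 genes, in 338 without the filter on dim probe sets and in 152 to 567 without 1 array. Before debanding 2058 genes were called, and 1139 to 2119 without 1 array. After debanding 664 were called, against 323 without the filter, 199 after quantile normalization, 427 by plain analysis of variance, 0 in a fit of only the groups compared and 170 to 535 without 1 array. DB3 against AB gave 956 calls, 629 in a fit of only those groups and 365 to 1031 without 1 array. For sDB3 against sAB there were 1861, 571 in a fit of only those groups and 967 to 1945 without 1 array. Genes higher in both effects numbered 157, with 88 without the filter, 44 after median centring, 41 after quantile normalization and 47 to 146 without 1 array. Genes lower in both numbered 31, with 14 without the filter, 111 after median centring, 56 with trended and robust moderation and 8 to 20 without 1 array. Genes in opposite directions numbered 18, with 11 without the filter, 6 after quantile normalization, 34 with trended and robust moderation and 6 to 21 without 1 array. The fit without the filter adjusts over 18193 genes. For the other settings the cause was not tested. Of the 630 calls 303 had another probe set above the filter, and in 70 of those it had the opposite sign. The change of Myh6 reversed with the mean of its probe sets (-0.0875) and with median centring (-0.0143), and that of Atp2a2 with the mean of its probe sets (0.038). Of 85 called genes followed singly, 43 stayed called under all 7 alternatives that kept every array and 36 without each of the 12 arrays. Of the 85, 41 lost the call without the filter, 32 by plain analysis of variance, 10 with the mean of the probe sets, 10 after median centring, 6 after quantile normalization, 2 with trended and robust moderation and 0 of those still tested with a filter at 6. No paired analysis was possible because the replicate numbers only follow accession order and pair no samples. Signals near the background understate a fold.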

Other observations

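The interferon response genes, antiviral and antigen-processing genes that interferons induce, had 21 of 24 changes above 0, with a median of 0.25, 0 calls by limma and by plain analysis of variance, and 3 at an unadjusted p under 0.05. Over all genes 60.5% of changes were above 0, and 6.04% were called by limma. Of 26 folding genes of the endoplasmic reticulum 2 had a positive and 1 a negative change, against 3.45% and 2.59% of all genes, and the positive calls numbered 0 or 1 without any 1 array and 0 after centring.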
